A study of Mus musculus with 6 samples.

Results

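Imprinted genes are transcribed mainly from the copy inherited from 1 parent. The set described here held 10 of them that are tied to the Meg3-Dlk1 network: Meg3, Rian, Mirg and Dlk1, which are neighbours on chromosome 12, and H19, Igf2, Peg3, Grb10, Ndn and Plagl1, which lie elsewhere. Members were found as every non-control probe whose gene name on the array was one of these symbols, which gave 25 probes of the 56605 on the array and 10 genes of 37074. The genes were chosen by their measured difference between these same arrays, so that their values are a description and carry no p-value. RNA came from sorted bone marrow LSK cells (lineage marker-negative, Sca1+, cKit+), the fraction that holds haematopoietic stem cells and early progenitors. There were 3 control samples (Atg5w/w;VaviCre+) and 3 Atg5f/f;Vav samples (Atg5f/f;VaviCre+), all on the C57BL/6 background and all taken at postnatal day 6 to 8. Both groups carried the VaviCre transgene, whose Vav promoter is active in blood-forming and endothelial cells, so the floxed Atg5 alleles were targeted in those cells and not in other marrow cells. The sources used here do not say whether a sample was 1 mouse or a pool, so the spread between arrays may be technical in part.

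At the Dlk1-Dio3 cluster the maternal copy gives the long noncoding RNAs Meg3, Rian and Mirg, and the paternal copy gives Dlk1, a membrane protein of the Notch ligand family. Rian carries small nucleolar RNAs and Mirg carries microRNAs. H19, a maternal noncoding RNA, and Igf2, a paternal growth factor, share another cluster. Several of these genes are known to be expressed in the stem cells at the top of the blood hierarchy more than in their progeny.

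All values are log2 signals relative to the 75th percentile of their array, and a difference is the mean of the Atg5f/f;Vav arrays minus the mean of the control arrays. Probes that 3 or more of the 6 arrays read well above background were tested, and a call means an adjusted p under 0.05 in a limma fit over all 32074 such probes. Between 57.6% and 58.2% of probes were well above background on each control array, and between 51.6% and 54.8% on each Atg5f/f;Vav array. The control arrays were in one row of the slide and the Atg5f/f;Vav arrays in the other, so a difference of row and one of genotype cannot be told apart. The 1 Atg5 probe read 1.10, 0.93 and 1.06 on control replicates 1 to 3, and it read 1.46, 1.51 and 1.74 on Atg5f/f;Vav replicates 1 to 3. It was thus higher in the samples labelled as lacking Atg5 (difference 0.54, adjusted p = 0.0209, limma). Whether the probe lies in the deleted part was not determined, so the direction of every difference below rests on the labels. The gate genes Kit and Ly6a, which encode cKit and Sca1, were well above background on all 6 arrays, but not at equal levels. Ly6a read 1.56, 1.31 and 1.53 in the controls and 2.89, 2.91 and 3.30 in Atg5f/f;Vav, a rise of 1.57 (SE 0.15, adjusted p = 0.00623, limma). Kit had a difference of -0.38 (SE 0.13, adjusted p = 0.0563, limma) by its brightest probe, and its 3 probes tested ranged from -0.67 to -0.38.

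Of the 25 probes of the set, 18 were tested, in 9 genes. In 15 of the 18, every Atg5f/f;Vav array lay below every control array, against 28.3% of all probes tested. In 12 of the 18, the probe was called lower, against 17.1% of all probes tested, and 0 were called higher. These shares only restate how the genes were selected, and the calls are no test of the members. Of the 18, 5 passed the filter only through the control arrays, where they were higher, so their part in both counts follows in part from the filter. Without control replicate 1 the number called was 2, and without control replicate 2 it was 1. The 12 came from Meg3, Rian, Mirg, Dlk1, H19, Igf2, Ndn and Plagl1. The 3 Grb10 probes overlapped between the groups, and no Peg3 probe rose above background on any array. In bulk RNA, fewer cells that carry a transcript and less of it in each cell cannot be told apart.

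**Figure D1:**
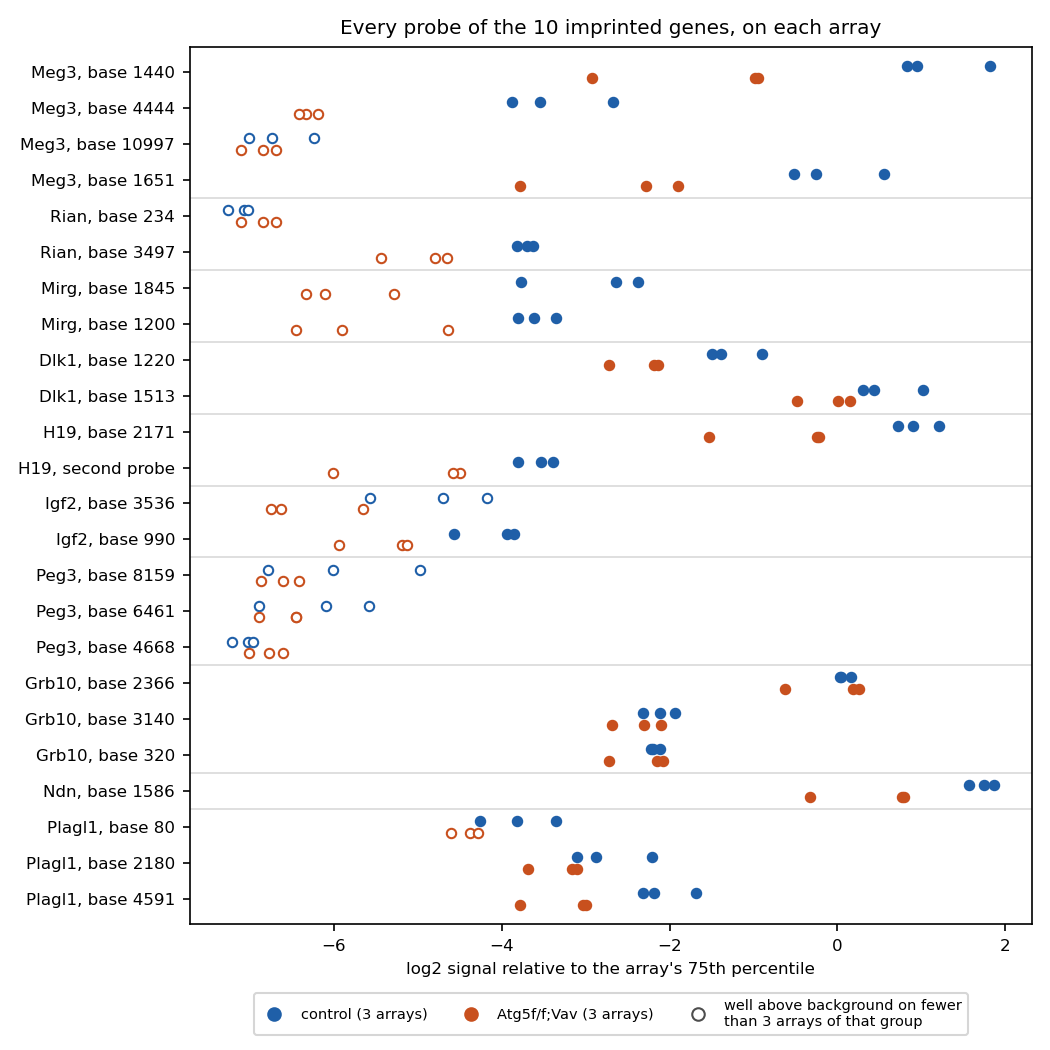
Log2 signal, relative to the 75th percentile of the array, of the 24 probes reported here on each of the 3 control (blue) and 3 Atg5f/f;Vav (orange) arrays, with each probe named by its first base in the transcript. Open circles mark a group in which the probe was well above background on fewer than 3 arrays, and the 3 Grb10 rows are the only ones with filled circles in both groups in which the groups overlap.

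Meg3, a noncoding RNA known as a growth suppressor, had 5 probes, of which 4 are reported here, all on the plus strand of chromosome 12 (mm9, the build of the file coordinates). Their sequences, 60 bases each, are given with their first base in the transcript named by the array's design, since the probes sample different stretches of the gene and did not all read alike. No part of them is in capitals.
Meg3, base 1440 (chr12:110783470-110783529): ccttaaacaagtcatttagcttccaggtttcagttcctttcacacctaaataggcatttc
Meg3, base 4444 (chr12:110799833-110799892): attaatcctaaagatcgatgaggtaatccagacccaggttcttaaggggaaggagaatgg
Meg3, base 10997 (chr12:110806386-110806445): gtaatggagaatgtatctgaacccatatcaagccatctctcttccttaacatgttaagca
Meg3, base 1651 (chr12:110809678-110809737): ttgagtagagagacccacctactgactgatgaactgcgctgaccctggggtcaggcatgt

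The base 1440 probe had the highest mean signal of the 5 and stands for Meg3 below. It read 0.83, 1.81 and 0.94 in the controls and -0.98, -0.95 and -2.92 in Atg5f/f;Vav. Control replicate 2 was the highest array and Atg5f/f;Vav replicate 3 the lowest, and the groups did not overlap. The mean was 1.20 ± 0.54 (SD, n = 3) in the controls and -1.62 ± 1.13 (SD, n = 3) in the Atg5f/f;Vav samples, a difference of -2.81 (SE 0.56), or 7.02-fold lower. Left out one array at a time, the difference lay between -3.14 and -2.16.

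The base 1651 probe lies at the far end of the sampled stretch. It read -0.51, 0.55 and -0.25 in the controls and -2.28, -1.90 and -3.78 in Atg5f/f;Vav, a difference of -2.58 (SE 0.51), or 6.00-fold lower. It thus had the same order of arrays at both ends as the base 1440 probe, with control replicate 2 highest and Atg5f/f;Vav replicate 3 lowest. The base 4444 probe read -3.88, -2.67 and -3.54 in the controls, where it was well above background on all 3 arrays, and -6.33, -6.19 and -6.41 in Atg5f/f;Vav, where it was so on none. For such a probe the lower group has only a bound. The bound was computed by taking, on each of its arrays, the higher of the probe's own value and the lowest signal of any probe well above background there. Such a bound holds only for the scanner's own background correction and leaves out the spread between control arrays. On that scale the base 4444 probe was at least 2.36-fold lower, beside measured means of -3.36 and -6.31. With normexp background correction in place of the scanner's own, its difference was -0.77, a smaller fall than the bound. The normexp setting also added an offset of 50 to every signal, which shrinks the differences of dim probes.

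Another Meg3 probe was too dim to be tested. The base 10997 probe stayed between -7.11 and -6.24 on all 6 arrays and was not well above background on any of them.

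Rian had 2 probes on the plus strand, 1 of which spanned a gap in the genome. The other probe of interest was one of an unnamed plus-strand transcript, whose last bases are the first bases of the spanning Rian probe. It was picked for its position after its values had been seen. The 3 sequences are shown because the capitals, the run of 21 bases that the first and second share, mark where a probe with signal and one without it meet.
Rian, base 234 (chr12:110865343-110872442): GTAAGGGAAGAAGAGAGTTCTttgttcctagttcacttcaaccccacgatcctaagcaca
Unnamed transcript (chr12:110865304-110865363): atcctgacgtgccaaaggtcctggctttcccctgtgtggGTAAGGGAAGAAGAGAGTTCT
Rian, base 3497 (chr12:110899840-110899899): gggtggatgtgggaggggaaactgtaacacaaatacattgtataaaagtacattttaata

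The spanning Rian probe covers 7100 bases of the genome with its 60 bases, and read between -7.26 and -6.69, not well above background on any array. The probe of the unnamed transcript, which is contiguous in the genome, was well above background on all 6. It read -2.04, -1.51 and -2.29 in the controls and -3.11, -2.83 and -2.73 in Atg5f/f;Vav, and fell by 0.94 (SE 0.22, adjusted p = 0.0216, limma). Its groups did not overlap, and the adjusted p was 0.0702 without control replicate 1 and 0.0717 without control replicate 2.

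The Rian base 3497 probe read -3.82, -3.63 and -3.70 in the controls and -4.65, -4.80 and -5.44 in Atg5f/f;Vav. It was well above background on the 3 control arrays and on no Atg5f/f;Vav array. The measured means were -3.72 and -4.96, a difference of -1.24 (SE 0.21), and the bound was at least 1.78-fold lower. The difference was -0.42 after normexp background correction.

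Mirg, the microRNA host gene at the far end of the noncoding stretch, had 2 probes on the plus strand. They are shown because both went from measured to not measured between the groups.
Mirg, base 1845 (chr12:110979653-110979712): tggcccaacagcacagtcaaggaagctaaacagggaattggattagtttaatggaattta
Mirg, base 1200 (chr12:110987569-110987628): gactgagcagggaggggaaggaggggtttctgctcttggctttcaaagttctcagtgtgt

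The base 1845 probe read -3.77, -2.64 and -2.37 in the controls and -6.33, -5.28 and -6.10 in Atg5f/f;Vav, means of -2.92 and -5.90. The base 1200 probe read -3.62, -3.36 and -3.81 in the controls and -5.91, -4.64 and -6.45 in Atg5f/f;Vav, means of -3.59 and -5.66. Both were well above background on the 3 control arrays and on no Atg5f/f;Vav array. The bounds were at least 3.20-fold lower for the base 1845 probe and at least 2.02-fold lower for the base 1200 probe. With normexp background correction the difference of the base 1845 probe was -1.07 and that of the base 1200 probe -0.65.

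Dlk1, the protein-coding and paternally expressed member of the cluster, had 2 plus-strand probes (chr12:110698428-110698487 and chr12:110698721-110698781), and both were well above background on all 6 arrays. The base 1220 probe read -1.49, -0.90 and -1.39 in the controls and -2.18, -2.14 and -2.72 in Atg5f/f;Vav, a difference of -1.09 (SE 0.22), or 2.13-fold lower. The base 1513 probe read 0.31, 1.02 and 0.44 in the controls and 0.15, 0.00 and -0.49 in Atg5f/f;Vav, a difference of -0.70 (SE 0.24), or 1.62-fold lower. Neither probe overlapped between the groups, but the nearest arrays of the base 1513 probe, control replicate 1 and Atg5f/f;Vav replicate 1, were 0.31 and 0.15. In both, control replicate 2 was the highest array and Atg5f/f;Vav replicate 3 the lowest, as for Meg3.

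Between the Dlk1 and Mirg probes the array held 25 probes of other names, which were examined for their position after the members' values were known. Of these, 20 were not well above background on any array and 3 were tested. A probe of an unnamed transcript on the minus strand between Dlk1 and Meg3 (chr12:110750107-110750166) read -2.94, -3.29 and -3.34 in the controls and -4.37, -4.11 and -4.15 in Atg5f/f;Vav, and fell by 1.02 (SE 0.15, adjusted p = 0.0138, limma). Its adjusted p was 0.0586 without control replicate 1 and 0.0612 without control replicate 2. The plus-strand transcript that meets Rian was the other to fall. The third, AK053394, had a difference of -0.30 (adjusted p = 0.156, limma), with overlapping groups. Further out in the cluster, Begain had a difference of -0.78 (adjusted p = 0.0538) and Dio3os, the antisense partner of the deiodinase gene Dio3, one of -0.07 (adjusted p = 0.783). Rtl1 and Dio3 were on the array but were not tested, and no probe was named Rtl1as.

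**Figure D2:**
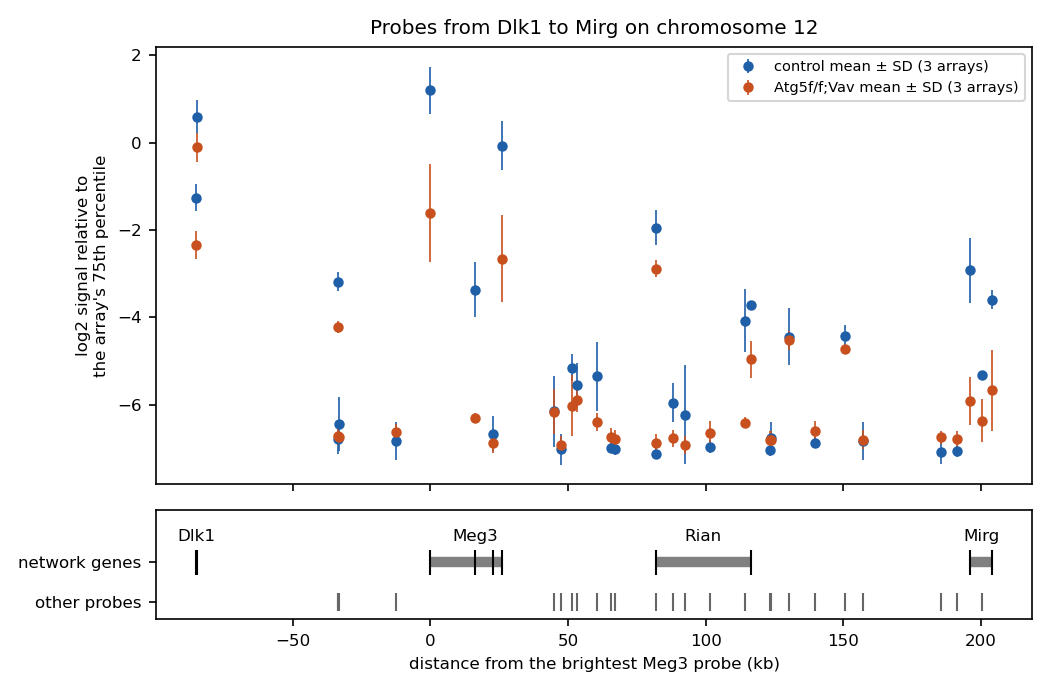
Mean log2 signal ± SD over 3 arrays of each probe reported between Dlk1 and Mirg, in control (blue) and Atg5f/f;Vav (orange), against its distance in kb from the brightest Meg3 probe (base 1440); the lower strip places the probes of the network genes and the 25 other probes. Most of the other probes lie near the floor in both groups, while the Dlk1 and Mirg probes and 3 of the 4 Meg3 probes stand above it in the controls.

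No mature or hairpin microRNA of the stretch had a probe of its name. RefSeq (GRCm38.p6) lists 57 microRNA hairpins from Meg3 to Mirg, 54 of them on the plus strand, with 112 mature microRNAs, and 10 of the hairpins lie within Mirg itself. Their levels were therefore not measured here, and the Rian and Mirg probes read the long transcripts only.

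H19 and Igf2 lie on chromosome 7. H19 had 2 probes on the minus strand, shown because they read the same RNA at different brightness.
H19, base 2171 (chr7:149761492-149761551): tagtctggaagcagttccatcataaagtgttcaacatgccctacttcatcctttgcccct
H19, second probe (chr7:149762173-149762232): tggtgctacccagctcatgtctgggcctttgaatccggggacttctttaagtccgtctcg

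The base 2171 probe read 0.72, 1.21 and 0.90 in the controls and -0.24, -0.21 and -1.53 in Atg5f/f;Vav. The mean was 0.94 ± 0.25 (SD, n = 3) in the controls and -0.66 ± 0.75 (SD, n = 3) in Atg5f/f;Vav, a difference of -1.61 (SE 0.36), or 3.04-fold lower. The groups did not overlap, and Atg5f/f;Vav replicate 3 was lower than the rest of its group. The second probe, dimmer and well above background on only 1 Atg5f/f;Vav array, read -3.80, -3.53 and -3.38 in the controls and -4.49, -4.58 and -6.01 in Atg5f/f;Vav, a difference of -1.45 (SE 0.40). That difference was -0.48 with normexp background correction and -0.96 without Atg5f/f;Vav replicate 3.

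The Igf2 base 990 probe (chr7:149839661-149839720, minus strand) read -3.93, -3.85 and -4.57 in the controls and -5.19, -5.12 and -5.93 in Atg5f/f;Vav. It was well above background on the 3 control arrays alone, with means of -4.12 and -5.42, and was at least 1.40-fold lower. With normexp background correction its difference was -0.37. The base 3536 probe was well above background on 2 control arrays and no Atg5f/f;Vav array. It read -5.57, -4.17 and -4.69 in the controls and -6.75, -5.66 and -6.63 in Atg5f/f;Vav, and no bound above 1-fold could be given.

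Ndn encodes necdin, a growth suppressor linked to stem cell quiescence and expressed from the paternal copy in the Prader-Willi region. Its 1 probe (chr7:69494749-69494808, plus strand) read 1.75, 1.86 and 1.57 in the controls and 0.77, 0.79 and -0.33 in Atg5f/f;Vav. The mean was 1.73 ± 0.15 (SD, n = 3) in the controls and 0.41 ± 0.64 (SD, n = 3) in Atg5f/f;Vav, a difference of -1.32 (SE 0.30), or 2.49-fold lower. Replicates 1 and 2 of Atg5f/f;Vav nearly coincided, and replicate 3 lay below both.

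Plagl1, a paternally expressed zinc finger transcription factor that acts on other genes of the network, had 3 probes on the plus strand of chromosome 10, and their differences were not alike. The base 4591 probe (chr10:12850832-12850891) read -2.19, -1.69 and -2.32 in the controls and -2.99, -3.03 and -3.78 in Atg5f/f;Vav, a difference of -1.20 (SE 0.26), or 2.30-fold lower. It was -0.72 after normexp background correction. The base 2180 probe read -2.21, -2.88 and -3.10 in the controls and -3.68, -3.11 and -3.16 in Atg5f/f;Vav, a difference of -0.59 (SE 0.26). Its nearest arrays, control replicate 3 and Atg5f/f;Vav replicate 2, were almost level. The base 80 probe had a difference of -0.61 (SE 0.23) and was well above background on 1 Atg5f/f;Vav array. It was -0.23 after normexp background correction.

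Grb10, an adaptor that inhibits signalling from the insulin and IGF receptors, differed from the other measured members in that its groups overlapped in all 3 probes. The base 2366 probe (chr11:11833165-11833224, minus strand) read 0.03, 0.17 and 0.05 in the controls and -0.62, 0.18 and 0.26 in Atg5f/f;Vav, a difference of -0.14 (SE 0.24). The base 3140 probe gave -0.24 (SE 0.18) and the base 320 probe -0.15 (SE 0.19). In all 3, Atg5f/f;Vav replicate 1 was the lowest array. Without that array the difference of the base 2366 probe was 0.14 and under quantile normalisation that of the base 320 probe was 0.05, so the sign was not settled. Peg3, a paternally expressed zinc finger gene, had 3 probes that read between -7.21 and -4.98 and were not well above background on any array, so no level or difference could be given.

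**Figure D3:**
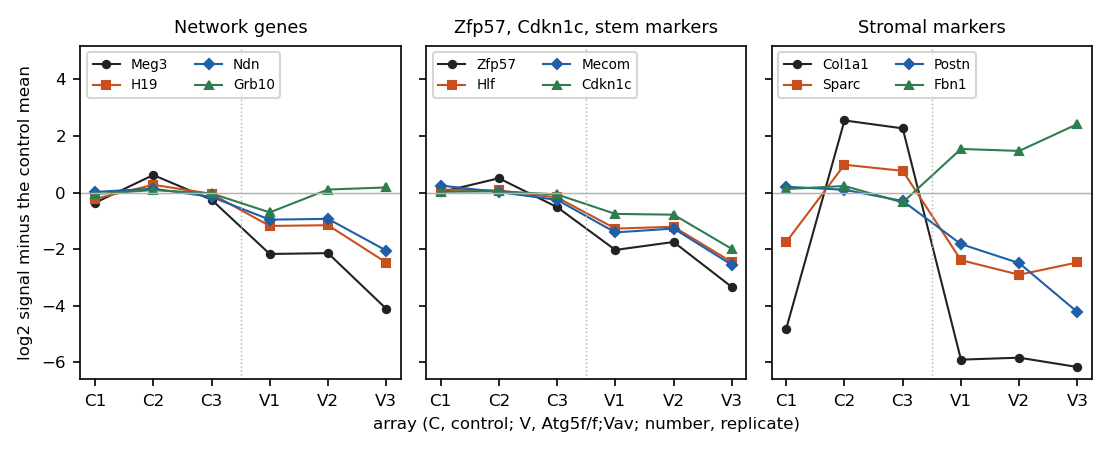
Log2 signal minus the mean of the 3 control arrays, on each array, for Meg3, H19, Ndn and Grb10 (left), Zfp57, Cdkn1c and the stem cell markers Hlf and Mecom (middle), and the stromal markers Col1a1, Sparc, Postn and Fbn1 (right). Lines only join the points of a gene. Atg5f/f;Vav replicate 3 is the lowest array for Meg3, H19, Ndn, Zfp57, Cdkn1c, Hlf and Mecom but not for Grb10, and control replicate 1 is far below the other controls for Col1a1 and Sparc.

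The order of arrays within the groups was alike in most members, and is described without a test. Taking for each of the 9 measured members its probe of highest mean signal, Atg5f/f;Vav replicate 3 was the lowest array in 7 and control replicate 2 was the highest in 7. Over all probes tested, Atg5f/f;Vav replicate 3 was also the array least like the controls. It correlated with them at 0.952 to 0.962, against 0.975 to 0.985 for Atg5f/f;Vav replicates 1 and 2. The share of all genes with the same lowest or highest array was not computed. The SD was larger in the Atg5f/f;Vav group than in the controls in 7 of the 9. The nearest profiles among 18376 genes well above background on all 6 arrays, by the root mean square difference of values centred on their own mean over the 6 arrays, were for Meg3 those of Iqck (0.298), AI596374 (0.337), Gabra2 (0.338), Zfp57 (0.344) and an unnamed noncoding transcript on chromosome 18 (0.349). For H19 they were those of D330022H12Rik (0.0825), Fam181b (0.0942), Fgd5 (0.108), Gm16489 (0.108) and Tro (0.108). Fgd5, a gene known to mark haematopoietic stem cells, is itself on the list of stem cell markers below.

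Lists of stem cell markers and of markers of other cells also held genes that differed between the groups, some lower and some higher. Their part in the members' differences was not tested. All 10 stem cell markers listed were tested: 5 were lower (Hlf, Mecom, Procr, Fgd5 and Robo4), 0 were higher and their median difference was -1.44, against 15.3% of genes lower, 18.7% higher and a median of -0.03 over all 20778 genes tested. None of the 5 calls held without control replicate 1 (adjusted p from 0.0688 to 0.108) or control replicate 2 (from 0.0719 to 0.131). Their summed level, in log2, was between 4.87 and 5.07 in the controls and between 2.66 and 4.02 in Atg5f/f;Vav. Atg5f/f;Vav replicate 3 was the lowest array for 9 of the 10, as it was for 7 of the 9 members. That array was the least like the controls over all probes tested, and the share over all genes was not computed. Hlf, a transcription factor of stem cells, read 3.74, 3.71 and 3.46 in the controls and 2.36, 2.42 and 1.17 in Atg5f/f;Vav. Slamf1, the marker on the list that went the other way, had a difference of 0.41 (adjusted p = 0.199, limma).

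Of 17 stromal markers, 11 were tested, 4 were lower and 2 higher. The higher ones were Col5a1, with a difference of 3.22, and Fbn1, with one of 1.81. None of the 6 calls held without control replicate 2 (adjusted p from 0.0646 to 0.139, limma). Without control replicate 1, Col1a1, Col1a2 and Sparc stayed lower (adjusted p = 0.000117, 0.00416 and 0.0106, limma). Postn, Col5a1 and Fbn1 then lay from 0.0634 to 0.0688. The summed level of the tested stromal markers was between 3.53 and 5.39 in the controls and between 3.06 and 3.86 in Atg5f/f;Vav. Col1a1, a fibrillar collagen chain, read -4.14, 3.23 and 2.95 in the controls and -5.23, -5.16 and -5.49 in Atg5f/f;Vav, so that control replicates 2 and 3 stood far above control replicate 1. The collagen and receptor genes Col3a1, Col6a1 and Pdgfra were not well above background on any array. Against control replicate 1 alone, a comparison chosen after the data were seen, the Meg3 difference was -2.45 and that of H19 -1.38. That of Ndn was -1.34 and that of Dlk1 base 1513 -0.42. The Atg5f/f;Vav mean was below control replicate 1 for all 18 member probes tested, and all 3 Atg5f/f;Vav arrays were below it for 15. Those 15 are the probes whose groups did not overlap, and the members were chosen by their difference. The counts thus follow from the selection, and no conclusion on a stromal part is drawn from them. Of 6 endothelial markers 4 were tested, 2 of them lower (Emcn and Kdr) and 1 higher (Plvap), with Cdh5 and Flt4 too dim to be tested. None of these calls held without control replicate 1 (adjusted p from 0.0537 to 0.109, limma) or control replicate 2 (from 0.0667 to 0.108). The summed level of the tested endothelial markers was between 2.18 and 2.35 in the controls and between 0.71 and 1.71 in Atg5f/f;Vav.

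Mature blood lineages moved in both directions. All 10 erythroid markers were tested, 4 were lower and 4 higher. The haemoglobin chain Hba-a1 fell by 2.26 (SE 0.32, adjusted p = 0.0136), while Car1, a carbonic anhydrase of erythroid progenitors, rose by 3.80 (SE 0.56, adjusted p = 0.0138) and the erythroid transcription factor Klf1 rose by 2.95 (SE 0.53, adjusted p = 0.0159). The summed erythroid level, between 7.88 and 9.04 in the controls and between 6.56 and 7.19 in Atg5f/f;Vav, hides that split. Of 8 neutrophil markers tested, 5 were lower and 2 higher, with the granule genes S100a8 and Ltf falling by 1.38 (adjusted p = 0.0252 and 0.0206) and Prtn3, a protease of early granules, rising by 0.89 (adjusted p = 0.0258). Their summed level was between 7.45 and 8.11 in the controls and between 7.75 and 8.08 in Atg5f/f;Vav. Of 7 mast cell and eosinophil markers tested, 1 was lower and 2 higher. The mast cell protease Cma1 fell by 2.01 (adjusted p = 0.0438), the IgE receptor chain Ms4a2 rose by 2.96 (adjusted p = 0.00689), and Gzmb, a granule protease, was well above background on the Atg5f/f;Vav arrays alone. Their summed level was between 3.07 and 4.43 in the controls and between 3.12 and 3.71 in Atg5f/f;Vav. Of 7 other lineage markers tested, 2 were higher and 0 lower, and their summed level was between 4.82 and 5.38 in the controls and between 4.39 and 4.86 in Atg5f/f;Vav. Of the genes given an adjusted p in this paragraph, Ms4a2 alone stayed under 0.05 without control replicate 1 (0.0353, limma) and without control replicate 2 (0.0354). The others lay from 0.0569 to 0.117 without control replicate 1 and from 0.0612 to 0.0930 without control replicate 2. Whether any of these lists had a part in the members' differences was not tested.

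Outside the 10 members, the differences of imprinted genes went in both directions. Of 80 other imprinted genes listed, 76 had a probe and 56 were tested. By the probe of highest mean signal, 13 fell, against 15.3% of all genes tested, 5 rose, against 18.7%, and 38 did not pass the test. Their median difference was -0.16. With the 75th percentile taken over probes detected on all arrays, which moved the median difference of all probes from -0.06 to -0.27, 23 fell and 1, Gatm, rose. None of the 18 calls held without control replicate 1 (adjusted p from 0.0660 to 0.164) or without control replicate 2 (from 0.0697 to 0.154).

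Snhg14, the long host transcript of the Prader-Willi region, and Magel2 passed the filter only through the control arrays, where they were higher, so their calls follow in part from the filter. Snhg14 read -3.13, -3.04 and -3.35 in the controls and -5.26, -4.79 and -6.52 in Atg5f/f;Vav, and was at least 2.70-fold lower (adjusted p = 0.0154, limma). Snrpn, a splicing protein gene of the same region, fell by 1.20 (SE 0.33, adjusted p = 0.0320), and Mkrn3, a ring finger gene there, fell by 1.08 (SE 0.27, adjusted p = 0.0254). The other 3 genes tested in the region besides Ndn (Atp10a, Peg12 and Ube3a) had differences from 0.11 to 0.14 and did not pass the test. Other probes of Atp10a and Ube3a had differences down to -0.34 and -0.29. With normexp background correction the difference of Snrpn was -0.67 and that of Mkrn3 -0.44, and under quantile normalisation their adjusted p-values were 0.0628 and 0.106.

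On distal chromosome 7, the neighbourhood of H19 and Igf2, 14 other imprinted genes were tested, 3 fell and 2 rose. Cdkn1c, a cyclin-dependent kinase inhibitor expressed from the maternal copy, read 1.68, 1.70 and 1.59 in the controls and 0.90, 0.87 and -0.34 in Atg5f/f;Vav, and fell by 1.18 (SE 0.33, adjusted p = 0.0335). Slc22a18 fell by 0.94 (SE 0.21) and the noncoding Kcnq1ot1 fell by 0.43 (SE 0.14, adjusted p = 0.0494), while Nap1l4 rose by 0.54 and Tssc4 by 0.34. Ppp1r9a, on chromosome 6, fell by 1.07 (SE 0.24, adjusted p = 0.0210). The widest rise among them was in Gatm, an enzyme of creatine synthesis, at 0.80 (SE 0.21, adjusted p = 0.0281), followed by Pon2 at 0.58 (adjusted p = 0.0249) and Nap1l4, while Commd1 rose by 0.38. Other probes of Pon2 and Commd1 had differences down to -0.34 and -0.65.

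**Figure D4:**
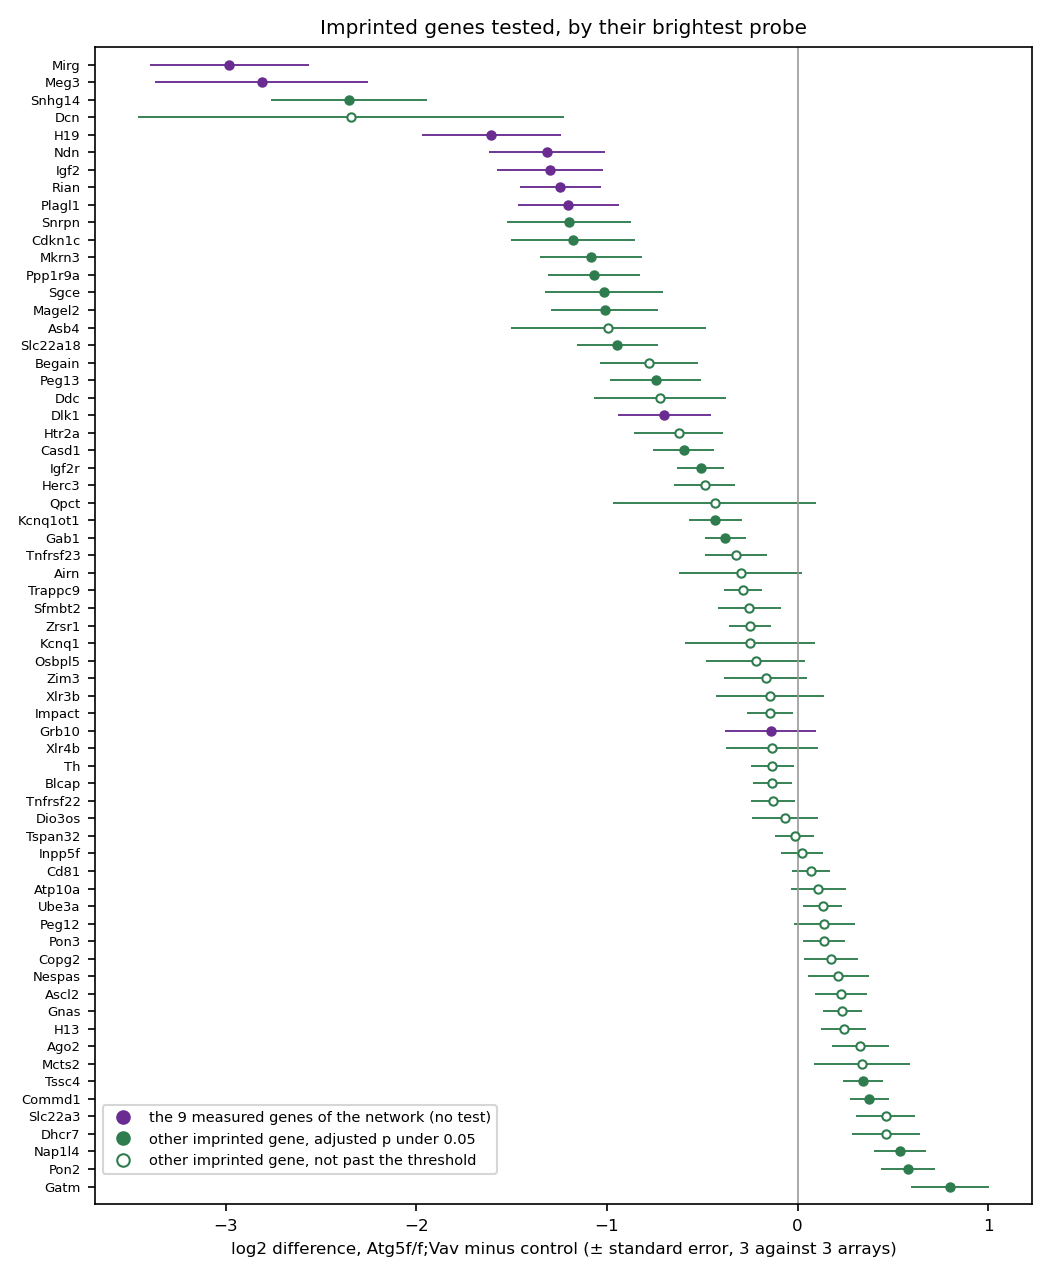
Log2 difference, Atg5f/f;Vav minus control, with its standard error (3 against 3 arrays) for the 9 measured network genes (purple, chosen by this difference and not tested) and the 56 other imprinted genes tested (green), each by its probe of highest mean signal. Filled green points are the 13 genes that fell and the 5 that rose, open green points did not pass the threshold, and differences run from -2.98 (Mirg) to 0.80 (Gatm).

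Genes that read or carry the IGF signal were examined because Igf2 and Grb10 belong to that pathway. Of 20 listed, 12 were tested, 4 fell, 0 rose and the median was -0.20, against 15.3% lower, 18.7% higher and a median of -0.03 over all genes tested. Grb14, an adaptor related to Grb10, read -3.23, -2.82 and -3.49 in the controls and -5.30, -4.44 and -5.32 in Atg5f/f;Vav, and fell by 1.84 (SE 0.28, adjusted p = 0.0145), or by 0.69 with normexp background correction. Igf2bp2, an RNA-binding protein of the Igf2 transcript, fell by 1.07 (SE 0.24, adjusted p = 0.0206), the insulin receptor Insr fell by 0.86 (SE 0.15, adjusted p = 0.0154), and Igf2r, the imprinted receptor that removes IGF2, fell by 0.51 (SE 0.12, adjusted p = 0.0241) and is counted in both lists. The receptor Igf1r had a difference of 0.30 (SE 0.14, adjusted p = 0.119), though its 4 probes ranged from -0.61 to 0.30. Igf2bp3 had one of 0.20 (SE 0.11, adjusted p = 0.200), though its 3 probes ranged from 0.09 to 1.14. Igf2bp1 was not tested. Without control replicate 1 or 2 the 4 falls had adjusted p-values from 0.0634 to 0.0919.

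Among 19 genes known to set or keep imprints, 16 were tested, 3 fell and 3 rose, shares close to the 15.3% lower and 18.7% higher of all genes tested. Zfp57, the zinc finger protein that protects methylation at imprinting control regions, read -1.01, -0.52 and -1.54 in the controls and -3.06, -2.78 and -4.37 in Atg5f/f;Vav. It fell by 2.38 (SE 0.45, adjusted p = 0.0166), with control replicate 2 highest and Atg5f/f;Vav replicate 3 lowest, as for Meg3. Another Zfp57 probe had a difference of -1.11. Tet1, an enzyme of DNA demethylation, fell by 0.84 (SE 0.23, adjusted p = 0.0344), and Arid4a fell by 0.53 (SE 0.11, adjusted p = 0.0187). The maintenance methyltransferase Dnmt1 rose by 0.32 (SE 0.10, adjusted p = 0.0434), as did its partner Uhrf1 (0.38) and Smchd1 (0.51), of which another probe gave -0.40. Trim28, the corepressor that Zfp57 recruits, had a difference of 0.34 (adjusted p = 0.0525) and Ctcf one of 0.27 (adjusted p = 0.124). Another probe of Trim28 gave 0.83 and another of Ctcf -0.17. Under quantile normalisation 5 of these genes fell and 0 rose, and without control replicate 1 or 2 the 6 adjusted p-values lay between 0.0673 and 0.143.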

How the data were processed

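Agilent 1-colour arrays of 6 samples were used. Per the file headers, the authors' scanner output was extracted with Agilent Feature Extraction 12.0.3.1 (the version is from the submitters' processing notes), and the deposited columns used were the processed signal intensity and, for an alternative, the mean and background intensities. The deposited value table holds the authors' normalised signals of the same arrays, not in log2. Their log2 was used as an alternative only. Control spots were left out, as were 64 to 81 outlier spots per array. The log2 processed signal was taken relative to the 75th percentile of 59305 spots, and spots of a probe were averaged. Probes well above background on at least 3 arrays (32074 of 56605) were fitted with lmFit and eBayes (limma 3.58.1, R 4.3.3) with Benjamini-Hochberg adjustment over all of them. The fit was checked on simulated data. A gene was represented by its tested probe of highest mean signal. Coordinates are those of the files (mm9). The number of arrays limits the precision. The values of 1 Meg3 probe are not reported here. Members and lists were chosen with earlier results of these data known. Named besides the members were the widest called rises and falls of each list, its imprinted genes of the member clusters, and the 5 profiles nearest to Meg3 and to H19. Replicate numbers were not treated as pairs.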

Additional observations from a re-analysis of the deposited data

How the results depend on the processing

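The Meg3 difference kept its direction under every alternative run, between -3.14 and -2.16 with 1 array left out, -2.43 with normexp background correction and -3.02 with the 75th percentile taken from detected probes alone. Meg3 was chosen by this difference. Its groups and those of the other called member probes did not overlap, so leaving out an array could not change a sign there. With normexp correction 8 of the 18 tested member probes moved, with differences from -1.07 (Mirg base 1845) to -0.23 (Plagl1 base 80) and -0.77 for Meg3 base 4444. That setting included an offset of 50 added to every signal, which by itself shrinks the differences of dim probes. The share of the shrinkage due to the offset was not tested. Of 283 member probe values recomputed, 17 moved by more than the spread between replicates and 0 changed the sign of a called probe. The fit called 11024 probes, 5540 higher and 5484 lower (50.3% higher). The share higher was 25.0% with the 75th percentile over detected probes (3369 and 10089) and 55.3% with quantile normalisation. Without a filter on dim probes 4538 were called, by the methods' t-test 0 after Benjamini-Hochberg adjustment (13541 at an unadjusted p under 0.05), and with 1 array left out 251 to 10304. For the 18 other imprinted genes called, the count was 1 without the filter, 0 by the methods' t-test (21 unadjusted), 0 with control replicate 1 alone (chosen after seeing the data) and 0 to 18 with 1 array left out. For the 4 IGF axis genes it was 0 by the methods' t-test and 0 to 5 with 1 array left out, and for the 6 imprint maintenance genes 1 without the filter, 0 by the methods' t-test and 0 to 5. Among the fits with 1 array left out, the lowest probe counts came without control replicate 1 or 2 (330 and 251 probes), and the cause was not tested. The deviations of same-numbered arrays from their group means correlated at -0.07, 0.19 and 0.11, and those of different-numbered arrays at -0.30 to 0.13. Deviations from a mean of 3 arrays are tied to each other, so these values cannot decide whether replicate numbers paired the samples. With the replicate block 10173 probes, 15 other imprinted, 5 IGF axis and 4 imprint maintenance genes were called. The Meg3 difference was -2.81, which a block holding 1 array of each group cannot change.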
